A study of Mus musculus with 32 samples.

Results

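G-protein coupled receptors with the official mouse symbols Gpr (followed by a number) or Adgr (followed by a family letter and a number) were followed through ribosome-bound RNA of Sertoli and Leydig cells. Members were all genes of the array with a single current symbol of either form, whatever their signal, which gave 97 of 19938 genes: 71 Gpr genes and 26 adhesion genes, measured by 105 probe sets. All members are called receptors here, although Adgrd2-ps and Gpr137b-ps are pseudogenes. Most Gpr genes encode orphan receptors, named in order of cloning because no ligand was known, although some have since been given one. Adhesion receptors carry a long extracellular part that binds matrix or partner proteins on neighbouring cells, and most cut themselves close to the membrane, so that a tethered stretch can activate the membrane-spanning part. In the testis, Sertoli cells hold the germ cells inside the tubules and respond to FSH, and Leydig cells between the tubules make testosterone under LH, each hormone acting through a coupled receptor of its own.

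The mice were AMH-Cre: RiboTag or Cyp17iCre: RiboTag double heterozygotes, whose Cre puts an HA tag on a ribosomal protein in Sertoli cells or in Leydig cells. RNA was measured in whole testis homogenate (input) and in the anti-HA immunoprecipitate (IP) on 32 arrays. The Sertoli line had 5 saline inputs, 5 saline IPs, and 2 IPs each of acyline, acyline with FSH for 1 h, acyline with FSH for 4 h, cetrorelix, and cetrorelix with testosterone. The Leydig line had 3 saline inputs, 3 saline IPs, and 2 IPs each of acyline, acyline with LH for 1 h and acyline with LH for 4 h. Acyline and cetrorelix block the GnRH receptor and so lower LH, FSH and testosterone. Acyline ran for 4 days in the Leydig line and each antagonist for 3 days in the Sertoli line, and testosterone was given for 4 h. The study describes the cetrorelix and acyline arms of the Sertoli line as separate experiments, and the array titles tie no saline IP to either. The mice were adult by the study's account and no age was labelled. The study gives its n for the saline groups and the Sertoli hormone arms as mice, while the labels tie no array to an animal, so every p-value measures the spread between these arrays. All mice carried the tag and a Cre, and the study's own staining showed tag in scattered tubule cells of the Cyp17iCre line besides the interstitium. In bulk RNA, fewer cells of a type and less RNA per cell cannot be told apart, and line and Cre cannot be told apart either.

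Array medians lay between 6.363 and 6.499 on the log2 scale, and arrays of 1 group correlated at 0.9883 to 0.9941. The labelled cell types carried their markers: of 10 measured Sertoli genes, 10 rose in the Sertoli IP, and of 6 measured Leydig genes, 6 rose in the Leydig IP and 6 fell in the Sertoli IP. In the Leydig IP, 1 of the 10 Sertoli genes (Trf, transferrin) rose, while Sox9 and Fshr, which define Sertoli cells, had log2 differences of 0.04 and 0.11. The summed linear signal of the 10 Sertoli genes was 16010 to 17520 in the Leydig IPs against 8894 to 9516 in the Leydig inputs, and 34450 to 36470 in the Sertoli IPs. The 10 spermatid genes summed to 20440 to 24520 in the Sertoli IPs and 21790 to 22020 in the Leydig IPs, against 46220 to 54500 in the inputs of both lines.

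Promoters are shown for 3 of the receptors whose enrichment differed between the lines: Adgrg7 on the Leydig side, Gpr37 and Gpr55 on the Sertoli side. Each is the 250 bases before the RefSeq gene start in GRCm38.p6, printed 5′ to 3′ on the gene's own strand, with capitals for the GC box GGGCGG on either strand, the element that Sp1 binds. Adgrg7 lies at chr16:56795859-56796108, Gpr37 at chr6:25689981-25690230 and Gpr55 at chr1:85961056-85961305, all on the minus strand.
Adgrg7: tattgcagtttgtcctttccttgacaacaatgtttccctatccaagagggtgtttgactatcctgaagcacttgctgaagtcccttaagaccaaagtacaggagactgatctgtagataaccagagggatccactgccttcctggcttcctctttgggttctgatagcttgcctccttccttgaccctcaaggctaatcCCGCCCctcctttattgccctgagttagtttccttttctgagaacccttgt
Gpr37: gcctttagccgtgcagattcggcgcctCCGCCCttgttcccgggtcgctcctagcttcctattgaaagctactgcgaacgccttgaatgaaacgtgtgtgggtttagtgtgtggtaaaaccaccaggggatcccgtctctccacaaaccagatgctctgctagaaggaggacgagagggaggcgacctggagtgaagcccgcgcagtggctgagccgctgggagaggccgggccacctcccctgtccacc
Gpr55: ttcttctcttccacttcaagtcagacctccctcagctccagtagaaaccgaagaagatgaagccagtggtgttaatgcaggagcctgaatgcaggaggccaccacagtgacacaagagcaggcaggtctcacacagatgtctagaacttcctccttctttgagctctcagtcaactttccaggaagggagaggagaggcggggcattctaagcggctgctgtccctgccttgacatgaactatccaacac
The Gpr37 stretch held 16 CpG steps, that of Adgrg7 held 1 and that of Gpr55 held 3, where the median of all 32851 promoters in the table was 6. RefSeq promoters matched 72 of the 97 genes, through 92 starts. GGGCGG was found in 35 of those 92 (38.0%) and in 32.7% of all promoters of that length. AAGGTCA, the half-site that steroidogenic factor 1 binds, was in 5 of 92 against 4.08% of all, AACAAT, a SOX motif, in 7 of 92 against 9.42%, and the cyclic AMP response element TGACGTCA in 1 of 92 against 1.55%. Each motif was searched on both strands, and none of them contains another. Among the 3 printed stretches, AACAAT was found in Adgrg7, and AAGGTCA and TGACGTCA were found in none of them.

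Testing was limited to probe sets with a linear signal over 50 on at least 1 array of the groups fitted, and a receptor was called where limma's moderated contrast gave an adjusted p under 0.05 with at least a 2-fold difference between IP and input, or 1.5-fold between IPs. Of the 97 receptors, 63 passed that signal on at least 1 of the 32 arrays and 34 on none. Those 34 were Adgrb3, Adgre4, Adgrf2, Adgrf4, Adgrg2, Adgrg4, Adgrg6, Gpr1, Gpr12, Gpr17, Gpr21, Gpr22, Gpr33, Gpr34, Gpr45, Gpr63, Gpr82, Gpr83, Gpr85, Gpr101, Gpr141, Gpr141b, Gpr142, Gpr143, Gpr149, Gpr151, Gpr152, Gpr158, Gpr165, Gpr171, Gpr173, Gpr174, Gpr176 and Gpr183. A receptor that passed only through an enriched IP had to differ from its input, so the shares among those tested describe the receptors and support nothing further. The limit of 50 is 5.64 on the log2 scale, and a group that lies wholly under it is low without a settled level. That held for the lower group of 3 of the 15 Sertoli calls (Adgrg7, Adgrl3, Gpr65) and of 3 of the 9 Leydig calls (Adgrl3, Gpr137b, Gpr182). For these, values with every signal under the limit set to it, an alternative chosen after seeing the data, are given beside the measured ones.

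In Sertoli cells, 10 of the 63 tested receptors rose in the IP over input and 5 fell, where 15.1% of all tested genes rose and 13.6% fell. The risers included 4 adhesion receptors (Adgrg1, Adgrl1, Adgra3, Adgre5) and Gpr37, each more than 4-fold higher, and Gpr55 at 3.44-fold. In Leydig cells, 6 of 58 rose and 3 fell, against 12.8% and 13.0% of all tested genes, and Adgrg7 at 11.8-fold stood far above the others, which reached 3.39-fold. Over all 97 receptors without the signal filter, the median log2 difference was 0.07 in the Sertoli line, where that of all genes was 0.02, and -0.04 in the Leydig line, where that of all genes was -0.04. Single receptors spread widely around these centres, from -1.75 to 2.74 in the Sertoli line and from -1.79 to 3.57 in the Leydig line.

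**Figure D1:**
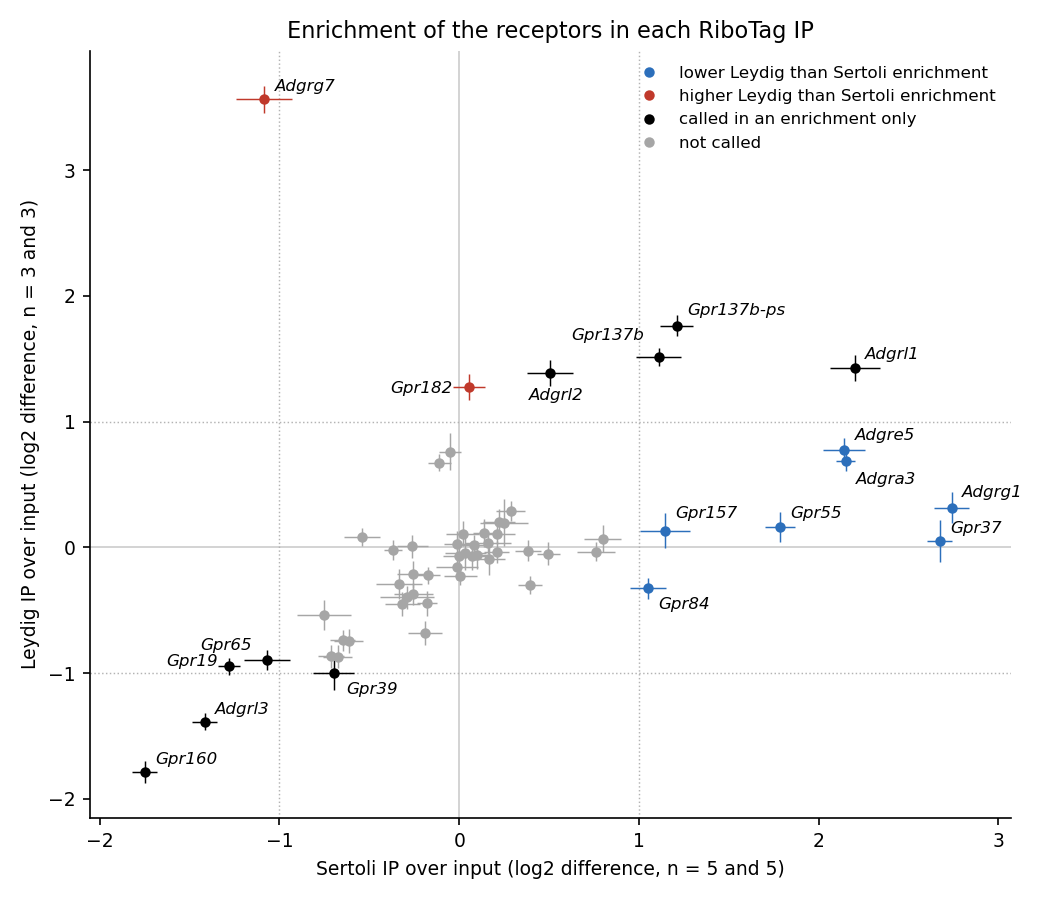
Log2 difference between IP and input in saline-treated mice for the 58 receptors tested in both lines, Sertoli line on the x axis (5 IPs and 5 inputs) and Leydig line on the y axis (3 and 3), where bars are standard errors of the limma fit and dotted lines mark 2-fold. Adgrg7 lies alone at the upper left (-1.09 and 3.57), and 7 receptors lie to the right with lower Leydig than Sertoli enrichment.

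Adgrg7, an adhesion receptor with no settled ligand, known in mice chiefly from the intestine, was far higher in the Leydig IP and lower in the Sertoli IP than in the inputs. The 3 Leydig inputs read 6.39, 6.26 and 6.54. The 3 Leydig IPs read 9.88, 9.88 and 10.14. Every Leydig IP thus lay above every input, and the log2 difference was 3.57 (SE 0.11, adjusted p = 2.65e-07). The 5 Sertoli inputs read 6.69, 5.90, 5.92, 5.91 and 6.21. The 5 Sertoli IPs read 5.13, 4.91, 4.74, 5.21 and 5.20. The Sertoli IPs lay below all Sertoli inputs, with -1.09 (SE 0.16, adjusted p = 4.69e-05), a call that ended without input replicate 1, the highest input, where the difference was -0.95. All 5 of these IPs lay under the signal limit, and with the limit in their place the difference was -0.48, under 2-fold. All 6 Leydig genes also fell in those IPs, with a median log2 difference of -1.44. Their part in the Adgrg7 fall was not tested. The difference of the enrichments, Leydig minus Sertoli, was 4.65 (SE 0.23, adjusted p = 1.88e-10), or 4.05 with the limit, and 2 of the 63 receptors tested passed in that direction against 6.82% of all tested genes.

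Gpr182, the other receptor called with the higher Leydig enrichment, is an atypical receptor of endothelial cells that takes up chemokines. Its Leydig inputs read 5.61, 5.27 and 5.43. Its Leydig IPs read 6.76, 6.76 and 6.61. These groups did not overlap and differed by 1.27 (SE 0.10, adjusted p = 1.65e-05). All 3 inputs lay under the signal limit, so Gpr182 entered the Leydig test through its IPs, and its p adds no support. With the limit in place of the inputs the difference was 1.07. In the Sertoli line its signals overlapped, from 5.23 to 5.71 in the inputs and from 5.39 to 5.61 in the IPs, with 0.05 (SE 0.09, adjusted p = 0.612). The enrichments differed by 1.22 (SE 0.14, adjusted p = 3.83e-06), or 1.08 with the limit. Of 9 endothelial genes measured, 8 were tested in the Leydig line and none were called, and the 9 summed to 656.7 to 724.3 in the Leydig IPs against 783.5 to 819.4 in the inputs. The part of endothelial cells in the Gpr182 values was not tested.

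On the Sertoli side, Gpr37, a receptor related to the endothelin receptors and known as a substrate of parkin, was measured with little spread. Its Sertoli inputs read 8.51, 8.29, 8.33, 8.52 and 8.61. Its Sertoli IPs read 11.16, 11.15, 11.13, 11.07 and 11.11. The IPs lay above all inputs, by 2.67 (SE 0.07, adjusted p = 8.7e-11). Its Leydig inputs read 8.12, 8.22 and 8.39. Its Leydig IPs read 7.999, 8.21 and 8.68. Those groups overlapped, with 0.05 (SE 0.17, adjusted p = 0.82), and the sign turned without IP replicate 3, where the difference was -0.14. The enrichments differed by -2.62 (SE 0.17, adjusted p = 3.45e-09), 1 of 7 receptors lower on the Leydig side, against 8.0% of all tested genes. Psap, the gene of prosaposin, a proposed ligand of Gpr37, rose in both IPs, by 1.64 in the Sertoli line and 1.28 in the Leydig line on the log2 scale.

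Adgrg1, also called GPR56, a receptor for collagen III that is needed for the layering of the cerebral cortex, had the widest Sertoli difference of the 63 receptors. Its Sertoli inputs read 8.37, 8.15, 8.06, 8.60 and 8.40. Its Sertoli IPs read 11.10, 11.02, 11.02, 10.97 and 11.19. The groups lay far apart, by 2.74 (SE 0.10, adjusted p = 3.47e-10). Its Leydig inputs read 8.48, 8.39 and 8.54. Its Leydig IPs read 8.58, 8.74 and 9.04. The Leydig IPs were all higher than the inputs, by 0.32 (SE 0.12, adjusted p = 0.0532), which missed the threshold, and the enrichments differed by -2.43 (SE 0.16, adjusted p = 5.79e-09). Tgm2, transglutaminase 2, a partner that binds the Adgrg1 ectodomain, went the other way: it rose in the Leydig IP by 2.69 on the log2 scale, and its enrichments differed by 2.29.

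Adgra3, or GPR125, known in mice as a mark of spermatogonial stem cells, was also higher in the Sertoli IP. Its Sertoli inputs read 8.76, 8.80, 8.69, 8.83 and 8.74. Its Sertoli IPs read 10.97, 10.86, 10.94, 10.84 and 10.96. The separation was complete, with 2.15 (SE 0.05, adjusted p = 8.21e-11). In the Leydig line the inputs read 8.88 to 8.96 and the IPs 9.48 to 9.65, a difference of 0.68 (SE 0.08, adjusted p = 0.000111) that passed the p but not the 2-fold limit. The enrichments differed by -1.47 (SE 0.09, adjusted p = 1.23e-09). The 10 spermatogonia and spermatocyte genes, a list not limited to stem cells, summed to 2819 to 3025 in the Sertoli IPs against 8175 to 9684 in the inputs. Of them 8 fell and none rose, and the part of germ cells in the Adgra3 values was not tested.

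Adgre5, or CD97, a leukocyte receptor that binds Cd55, followed the same course. The signals of Adgre5 in the Sertoli inputs were 7.34, 7.01, 6.999, 7.39 and 7.23. Those in the Sertoli IPs were 9.68, 9.40, 9.24, 9.10 and 9.27. No IP fell within the inputs, and the difference was 2.14 (SE 0.12, adjusted p = 7.18e-09). In the Leydig line it was 0.77 (SE 0.09, adjusted p = 0.000154), under the 2-fold limit, and the enrichments differed by -1.37 (SE 0.17, adjusted p = 7.55e-06). Cd55 itself, which shields cells from complement, fell in both IPs, by 1.67 on the log2 scale in the Sertoli line and by 1.37 in the Leydig line.

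Gpr55, which answers to lysophosphatidylinositol, was near the same level in every input and in the Leydig IPs. The signals of Gpr55 in the Sertoli inputs were 6.23, 6.16, 6.26, 6.24 and 6.43. Those in the Sertoli IPs were 8.11, 8.12, 8.10, 8.15 and 7.76. The IPs were all higher, by 1.78 (SE 0.08, adjusted p = 2.42e-09), although replicate 5 stood below the other 4. The Leydig inputs spanned 6.08 to 6.32 and the Leydig IPs 6.15 to 6.56, and the enrichments differed by -1.62 (SE 0.15, adjusted p = 1.87e-07).

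Gpr84, a receptor of medium-chain fatty acids known from macrophages, and Gpr157, an orphan receptor, lay just over the 2-fold limit. Gpr84 signals were 5.88 to 6.08 in the Sertoli inputs and 6.70 to 7.25 in the IPs, with 1.05 (SE 0.10, adjusted p = 1.11e-06), and the call ended without IP replicate 3, where the difference was 1.00. In the Leydig line Gpr84 differed by -0.33 (SE 0.09), below its inputs on every array, and its enrichments differed by -1.38 (SE 0.15, adjusted p = 1.2e-06). Of 12 macrophage genes tested in the Sertoli line 6 fell and none rose, and the 13 measured summed to 2299 to 2499 in the IPs against 3027 to 3818 in the inputs. The part of macrophages in the Gpr84 values was not tested. Gpr157 signals were 6.09 to 6.46 in the Sertoli inputs and 7.10 to 7.82 in the IPs, with 1.15 (SE 0.14, adjusted p = 1.09e-05). Its enrichments differed by -1.01 (SE 0.22, adjusted p = 0.00159), at the edge of 2-fold: 9 of 16 fits that left out 1 array kept the call, and those without Sertoli input 1 or 3, Sertoli IP 1, 2 or 3, Leydig input 3 or Leydig IP 1 gave -0.85 to -0.99.

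**Figure D2:**
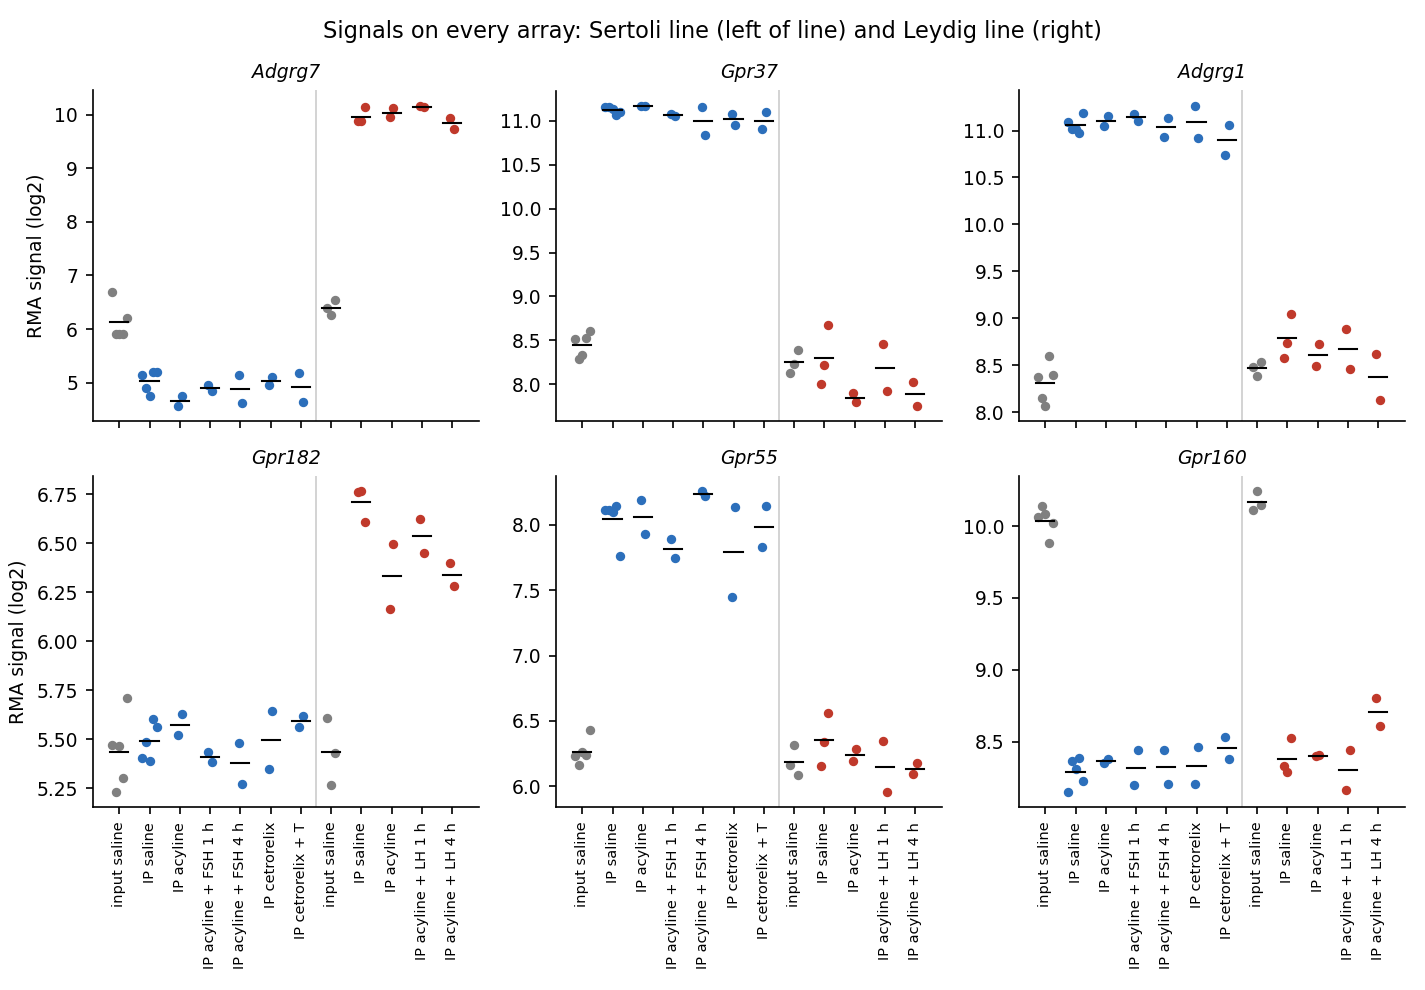
RMA signal (log2) of 6 receptors on each of the 32 arrays, Sertoli line left and Leydig line right of the vertical line, where points are arrays, grey for inputs, and black lines are group means. Adgrg7 reads 9.73 to 10.17 on all 9 Leydig IPs and 4.56 to 5.21 on all 15 Sertoli IPs, Gpr37 and Adgrg1 read at least 10.74 on the Sertoli IPs and at most 9.04 on the Leydig IPs, and Gpr160 is lower in every IP than in every input.

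A set of 3 members rose in both IPs: Adgrl1, Gpr137b and the pseudogene Gpr137b-ps. The study reports Spnb1 and Etl4 as enriched in both lines and proposes non-specific precipitation for them. Whether that applies to these 3 members was not tested. Adgrl1, or latrophilin 1, the receptor of the spider toxin alpha-latrotoxin that binds teneurins and FLRT proteins across cell contacts, had the wider difference in the Sertoli line. The signals of Adgrl1 in the Sertoli inputs were 8.30, 7.98, 7.94, 8.48 and 8.46. Those in the Sertoli IPs were 10.63, 10.15, 10.19, 10.58 and 10.62. The difference was 2.20 (SE 0.14, adjusted p = 2.9e-08). Its Leydig inputs read 8.25, 8.32 and 8.29. Its Leydig IPs read 9.54, 9.92 and 9.68. That difference was 1.43 (SE 0.10, adjusted p = 8.78e-06), and the enrichments differed by -0.77 (SE 0.21, adjusted p = 0.00756), under 2-fold. The summed signal of the 10 Sertoli genes was also higher in these Leydig IPs, as given above. Of the 10 only Trf was called there, and their median log2 difference was 0.23. The part of these genes in the Adgrl1, Adgre5 and Adgra3 values there was not tested.

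Gpr137b, a lysosomal membrane protein, and its transcribed pseudogene copy Gpr137b-ps, both annotated on chromosome 13, rose together. Gpr137b spanned 5.60 to 5.95 in the Sertoli inputs and 6.56 to 7.28 in the IPs, and 5.28 to 5.45 and 6.87 to 6.91 in the Leydig line. Gpr137b differed by 1.11 (SE 0.13, adjusted p = 5.73e-06) in the Sertoli line and by 1.52 (SE 0.07, adjusted p = 1.28e-06) in the Leydig line. The Leydig inputs all lay under the signal limit, so the Leydig test was entered through the IPs and its p adds no support, and with the limit in their place the difference was 1.25. Gpr137b-ps differed by 1.21 (SE 0.09, adjusted p = 1.46e-07) and by 1.76 (SE 0.08, adjusted p = 1.11e-06). A gene and its close copy can share hybridizing RNA, so which of the pair gave each signal is uncertain.

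Adgrl2, latrophilin 2, was called in the Leydig IP and not in the Sertoli IP, and 8 probe sets measure it. At the one with the highest mean, the Leydig inputs read 6.83, 6.77 and 6.77. The Leydig IPs read 8.08, 8.04 and 8.40. They did not overlap and differed by 1.39 (SE 0.11, adjusted p = 1.21e-05), against 0.51 (SE 0.13, adjusted p = 0.00343) in the Sertoli line. The enrichments differed by 0.88 (SE 0.19, adjusted p = 0.00156), under 2-fold except without Sertoli IP replicate 3, which gave 1.00. Over the 6 tested probe sets of the gene this difference was 0.49 to 1.15, with all 6 past the adjusted p and 3 of them past 2-fold (1.09, 1.07 and 1.15). Those same 6 of the 8 probe sets were all higher in the Leydig IP with adjusted p from 1.31e-06 to 0.00168 and log2 differences of 0.82 to 1.57. The other 2, at or under the signal limit, gave -0.05 and 0.23. Probe sets of a gene read the same arrays, here and in the hormone arms, so their agreement adds no replicates. Among proposed partners of the latrophilins, Flrt1, Flrt2 and Tenm3 rose in the Sertoli IP by 2.41, 1.49 and 2.16 on the log2 scale, and their enrichments differed by -2.39, -2.18 and -2.37.

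Of the receptors that fell, Gpr160, an orphan receptor, had the widest differences and nearly equal ones. Its Sertoli inputs read 10.06, 10.14, 10.08, 9.88 and 10.02. Its Sertoli IPs read 8.15, 8.37, 8.31, 8.39 and 8.23. The IPs lay below all inputs, with a difference of -1.75 (SE 0.07, adjusted p = 6.24e-10). Its Leydig inputs read 10.11, 10.24 and 10.15. Its Leydig IPs read 8.33, 8.29 and 8.53. That difference was -1.79 (SE 0.09, adjusted p = 1.25e-06), and the enrichments differed by -0.04 (SE 0.11). Adgrl3, latrophilin 3, fell in both lines, from 6.47 to 6.83 in the Sertoli inputs to 5.16 to 5.27 in the IPs, a difference of -1.42 (SE 0.07, adjusted p = 3.78e-09). Its Leydig inputs spanned 6.59 to 6.64 and its Leydig IPs 5.18 to 5.25, a difference of -1.39 (SE 0.07, adjusted p = 1.18e-06). The IPs of both lines lay under the signal limit, and with the limit in their place the differences were -0.99 and -0.97, just under 2-fold. The calls of the latrophilins thus differed: Adgrl1 was called higher in both IPs, Adgrl2 in the Leydig IP, and Adgrl3 lower in both. Adgrl2 was also higher in the Sertoli IP at all 6 tested probe sets, but under 2-fold.

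Gpr19, an orphan receptor, and Gpr65, a proton sensor of immune cells, fell in the Sertoli IP by 1.28 and by 1.07 on the log2 scale. Gpr19 spanned 8.82 to 8.95 in the inputs and 7.46 to 7.73 in the IPs, and Gpr65 spanned 5.73 to 6.30 and 4.59 to 5.09, so neither overlapped. In the Leydig IP they gave -0.95 and -0.89, past the adjusted p but under 2-fold, and their enrichments differed by 0.34 (SE 0.09, adjusted p = 0.00609) and by 0.17 (SE 0.18, adjusted p = 0.521). The Gpr65 call ended without input replicate 4 (-0.99) or IP replicate 2 (-0.98), and with the signal limit in place of the IPs, all under it, the difference was -0.35. Gpr39, a zinc sensor, fell in the Leydig IP by 1.00, at the 2-fold limit, and ended under it without input replicate 2, IP replicate 2 or IP replicate 3, at -0.89 to -0.97, or with signals under the signal limit set to it, at -0.86. It gave -0.70 (SE 0.11) in the Sertoli line. In the same IPs, of 10 spermatid genes 7 fell in the Sertoli line and 9 in the Leydig line, of 10 spermatogonia and spermatocyte genes 8 and 7 fell (1, Zbtb16, rose in the Leydig line), and of 13 macrophage genes 6 fell in each. Their part in the falls of Gpr160, Adgrl3, Gpr19, Gpr65 and Gpr39 was not tested.

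Altogether 18 receptors were called in at least 1 line: 7 rose in the Sertoli line alone, 2 in the Leydig line alone and 3 in both, 2 fell in both, 2 fell in the Sertoli line alone and 1 in the Leydig line alone, and Adgrg7 went in opposite directions. With signals under the signal limit set to it, the calls of Adgrg7, Adgrl3 and Gpr65 in the Sertoli line and of Adgrl3 and Gpr39 in the Leydig line ended, which left 12 and 7 calls, while the difference of enrichments kept the same 9. Another 27 receptors in the Sertoli line and 21 in the Leydig line passed the adjusted p under 2-fold, of which 6 and 3 had a lower group wholly under the signal limit. Small differences of this kind were common to all genes. At an unadjusted p under 0.05 lay 45 of 63 tested receptors in the Sertoli line, beside 77.0% of all tested genes. In the Leydig line 32 of 58 did, beside 71.3%. The nearest below 2-fold in the Sertoli line was Adgrf1 at 0.92 (SE 0.09), which entered the test through its IPs since all inputs lay under the signal limit, then Gpr179, a receptor of retinal bipolar cells, at 0.80, and Gpr161, a ciliary receptor that restrains Hedgehog signalling, at 0.76. Gpr161 signals were 5.71 to 5.86 in the Sertoli inputs and 6.27 to 6.94 in the IPs, while the Leydig IPs, at 5.71 to 5.78, lay within the range of their inputs. Its enrichments differed by -0.79 (SE 0.15, adjusted p = 0.0005), under 2-fold.

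Other receptors known from certain cell types or roles were read in the same way. Adgre1, the F4/80 antigen of macrophages, read 5.89 to 6.03 in the Sertoli inputs and 5.07 to 5.54 in the IPs, with -0.68 (SE 0.08, adjusted p = 8.99e-06). In the Leydig line it read 6.11 to 6.25 and 5.14 to 5.40, with -0.87 (SE 0.09, adjusted p = 7.1e-05). Adgrl4, an endothelial receptor, differed by -0.42 (SE 0.12, adjusted p = 0.00964) in the Sertoli line, and Adgrf5, of lung and endothelium, by -0.39 (SE 0.09, adjusted p = 0.00136). The IPs of these 3 all lay under the signal limit in the Sertoli line, and with the limit in their place Adgre1 gave -0.33, Adgrl4 -0.02 and Adgrf5 -0.05. In the Leydig line Adgrl4 and Adgrf5 stayed under the signal limit and were not tested. Adgrg2, known from the efferent ducts and epididymis, did not pass a signal of 50 on any array and read 4.06 to 4.73. Gpr3, which keeps cyclic AMP high without a ligand in oocytes, differed by -0.26 (SE 0.08, adjusted p = 0.0157) in the Sertoli line and by 0.01 (SE 0.09) in the Leydig line, while its relative Gpr12 stayed under the signal limit. By subfamily, Adgrb, Adgrd, Adgrf and Adgrv gave no call in either line, and their log2 differences lay between -0.68 and 0.92. None of the 4 Adgrf genes was tested in the Leydig line.

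Beyond the receptors themselves, 11 of 12 measured G-protein alpha subunits were tested, and 6 rose in the Sertoli IP and 1 fell, where 15.1% of all tested genes rose and 13.6% fell. Gna14, of the Gq class, rose there by 2.24 on the log2 scale and Gnai1, of the inhibitory class, by 2.10, while Gnao1, the neuronal inhibitory subunit, fell by 1.38. In the Leydig IP, where 12.8% of all tested genes rose and 13.0% fell, Gnaq rose by 1.49 and Gnai1 by 1.11, and Gnao1 fell by 1.08. The enrichments of Gna14 differed by -1.44, which passed. Of 6 arrestins and receptor kinases, Grk3 fell in both IPs, by 1.08 and by 1.06, and Arrb1, beta-arrestin 1, rose in the Leydig IP by 1.25. Of 18 tested ligands and partners, 6 rose and 2 fell in the Sertoli IP, and 3 rose and 1 fell in the Leydig IP, against the same shares of all genes. Their median log2 differences, 0.09 and 0.02 over all 21 measured, lay near those of all genes, 0.02 and -0.04, whereas the alpha subunits had medians of 1.03 and 0.47.

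Saline inputs of the 2 lines were compared to see whether the testes themselves differed in the receptors. The study's methods do not describe this comparison. None of 63 receptors was called by limma, and 0 by an ordinary contrast without adjustment. Of the 63, 13 had an unadjusted p under 0.05, as had 26.7% of all tested genes. Of all tested genes 0.0691% were called higher and 0.138% lower in the Leydig line, and 0.0754% and 0.144% by the ordinary contrast. Adgrg7 differed by 0.27 (SE 0.16, adjusted p = 0.299) and Gpr37 by -0.20 (SE 0.12, adjusted p = 0.29). Gpr137b, at -0.44 (SE 0.13, adjusted p = 0.0387), and Gpr3, at -0.36 (SE 0.09, adjusted p = 0.0228), passed the p but not the 2-fold limit, both lower in the Leydig line.

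The hormone arms asked which receptors changed on the tagged ribosomes after gonadotropins were withdrawn and given back. By limma with adjustment over all probe sets, none was called in any of the 8 comparisons. In the Leydig line 57 receptors were tested: at an unadjusted p under 0.05 lay 7 for acyline against saline, 2 for LH at 1 h against acyline and 13 for LH at 4 h, as did 12.3%, 4.58% and 16.3% of all tested genes. Of all genes, 0.0455% were called higher and 0.0845% lower with acyline, 0.013% and 0.0% at 1 h, and 0.156% and 0.371% at 4 h. In the Sertoli line 56 were tested: acyline had 1 at that p, cetrorelix 11, testosterone 4, FSH for 1 h 5 and FSH for 4 h 4, beside 4.17%, 4.61%, 4.59%, 9.78% and 3.72% of all tested genes. Of all genes, 0.0% were called higher and 0.00646% lower with acyline and again with cetrorelix, 0.00646% and 0.0% with testosterone, 0.0% and 0.0% at 1 h of FSH, and 0.00646% and 0.0129% at 4 h. A rule modelled on the study's, an ordinary contrast without adjustment, called 1 receptor after LH for 4 h, 1 with cetrorelix, 1 with testosterone and 0 in the other 5. By that rule the shares of all tested genes called higher and lower were 0.559% and 0.891% for Leydig acyline, 0.26% and 0.039% for LH at 1 h, and 1.01% and 1.2% for LH at 4 h. They were 0.0194% and 0.0775% for Sertoli acyline, 0.00646% and 0.0582% for cetrorelix, 0.0646% and 0.0517% for testosterone, 0.659% and 0.0905% for FSH at 1 h, and 0.11% and 0.0388% for FSH at 4 h. The median absolute difference of the tested receptors ran from 0.07 for Sertoli acyline to 0.16 for LH at 4 h on the log2 scale. Treated groups of 2 arrays limit what could be detected, and a missed threshold does not show that a receptor held its level.

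**Figure D3:**
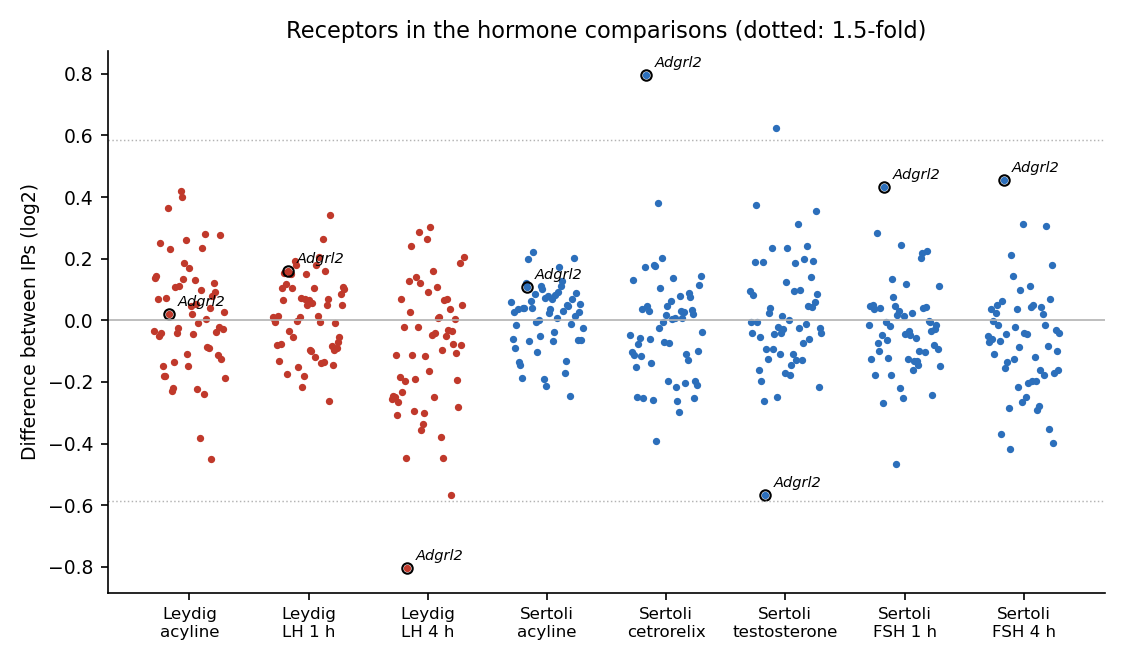
Log2 difference between IPs of each tested receptor (points, in alphabetical order within a column) in the 8 hormone comparisons, Leydig line red and Sertoli line blue, where dotted lines mark 1.5-fold and circles mark the Adgrl2 probe set with the highest mean. Adgrl2 is the lowest point after LH for 4 h (-0.80) and the highest with cetrorelix (0.79).

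Adgrg7, Gpr37, Adgrg1 and Gpr182 kept the line with the higher signal in every arm. Adgrg7 read 9.95 and 10.12 with acyline, 10.17 and 10.13 after LH for 1 h, and 9.94 and 9.73 after LH for 4 h. The difference of acyline from saline was 0.07 (SE 0.12), and those of LH from acyline were 0.12 (SE 0.13) at 1 h and -0.20 (SE 0.13) at 4 h. Gpr37 ranged from 10.84 to 11.18 over the 15 Sertoli IPs, and its differences ran from -0.18 (SE 0.10) for FSH at 4 h to 0.05 (SE 0.09) for acyline. Adgrg1 ranged from 10.74 to 11.27, with differences of -0.20 (SE 0.13) for testosterone to 0.04 (SE 0.13) for FSH at 1 h. Gpr182 read 6.17 and 6.496 with acyline, under the 3 saline IPs, a difference of -0.38 (SE 0.12, adjusted p = 0.244), 6.62 and 6.45 after LH for 1 h, and 6.4 and 6.28 after LH for 4 h. The differences of LH from acyline were 0.21 (SE 0.13) at 1 h and 0.01 (SE 0.13) at 4 h.

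Adgrl2 carried the widest hormone difference of the tested receptors. At the probe set with the highest mean, the acyline IPs read 8.21 and 8.18. The IPs after LH for 1 h read 8.22 and 8.49. The IPs after LH for 4 h read 7.51 and 7.27. Both 4 h arrays lay below every other Leydig IP yet above all 3 inputs (6.77 to 6.83). The difference from acyline at 4 h was -0.80 (SE 0.16, adjusted p = 0.0606), which missed the threshold, while the ordinary contrast called it. All 6 tested probe sets were lower, by 0.47 to 0.97 on the log2 scale, with every 4 h array under every acyline array, and 2 of the 6 passed the adjusted p, at 0.0308 and 0.0313. These probe sets share the same arrays and are not replicates of the treatment. At 1 h the 6 differences spread from -0.18 to 0.20. Over the fits without 1 array the difference was -0.69 to -0.92 with adjusted p from 0.104 to 0.315. The 6 Leydig genes summed to 34470 to 41920 in the 4 h IPs and 27760 to 30750 in the acyline IPs. In the saline IPs they summed to 36130 to 37080. Of the 10 spermatogonia and spermatocyte genes none was called at 4 h, and their median log2 difference was 0.03. The lowest of them, Zbtb16, gave -1.93 (adjusted p = 0.0584). The 10 summed to 2604 to 3615 at 4 h against 3246 to 3304 with acyline. The part of either set in the Adgrl2 value was not tested.

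In the Sertoli line the cetrorelix IPs of Adgrl2 read 8.19 and 7.86, above all 5 saline IPs, which read 7.03, 7.09, 7.73, 7.01 and 7.29. The difference was 0.79 (SE 0.28, adjusted p = 0.933), called by the ordinary contrast, and 5 of 6 probe sets were higher, by up to 1.11. With testosterone after cetrorelix the IPs read 7.08 and 7.83, and the difference was -0.57 (SE 0.34, adjusted p = 0.93), with all 6 probe sets lower and none past the adjusted p. Acyline, the other antagonist, gave 7.16 and 7.51 and a difference of 0.11. Antagonist and experiment cannot be told apart in this line. After FSH for 4 h the arrays read 7.27 and 8.31, so that the difference of 0.45 rested on replicate 2 and was -0.07 without it. The Leydig genes in the Sertoli IPs summed to 1316 to 1699 with saline and to 814.6 to 945.1 with cetrorelix. They summed to 865.3 to 973.8 with testosterone after cetrorelix. With acyline the sums were 728.8 to 831.9, and after FSH for 4 h they were 957.2 to 1059. The part of these genes in the Adgrl2 values was not tested.

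**Figure D4:**
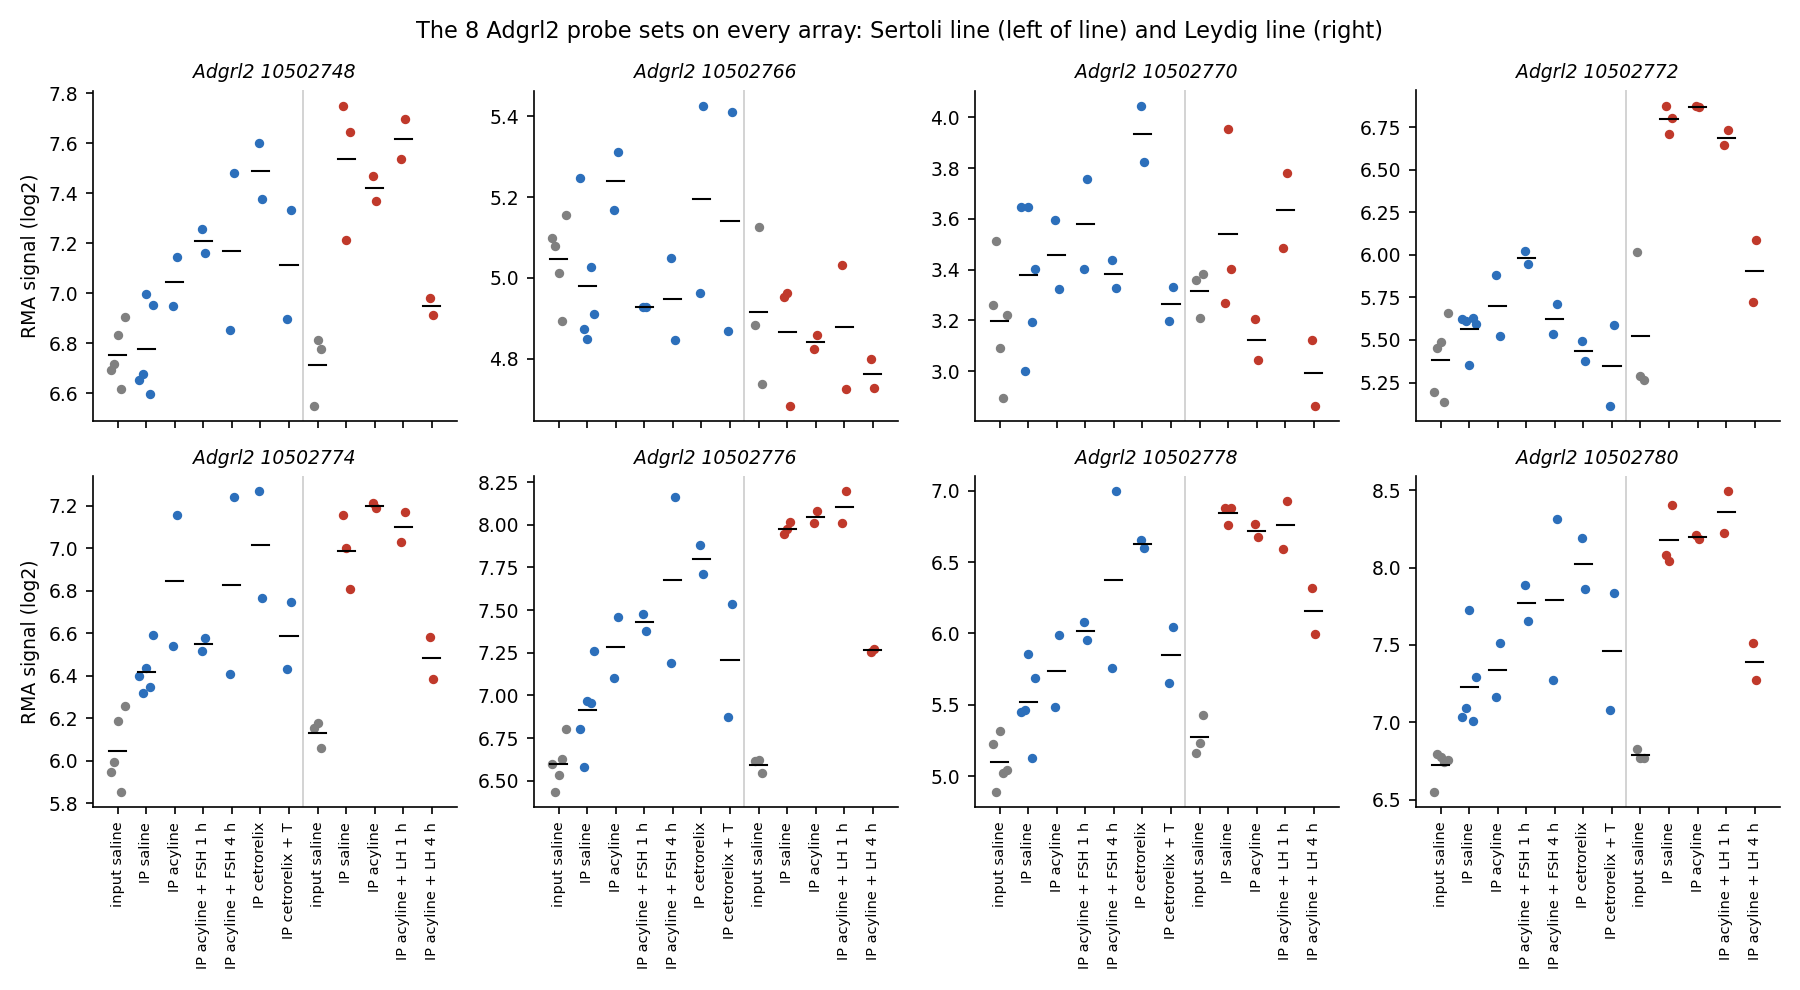
RMA signal (log2) of each of the 8 Adgrl2 probe sets on all 32 arrays, Sertoli line left and Leydig line right of the vertical line, where points are arrays, grey for inputs, black lines are group means, and each panel has its own scale. In 6 of the 8 panels the saline Leydig IPs lie above the inputs and the 2 arrays of LH for 4 h lie below those of acyline.

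Other receptors gave smaller differences, none called by limma. Adgrl1 differed by -0.45 (SE 0.13, adjusted p = 0.144) after LH for 4 h, and Gpr37l1, a relative of Gpr37, by -0.57 (SE 0.22, adjusted p = 0.222). The 4 h arrays of Gpr37l1, at 5.11 and 5.20, lay under the signal limit. With signals under the limit set to it, the Gpr37l1 difference was -0.08. With acyline in the Leydig line Gpr137b and Gpr137b-ps differed by 0.42 (SE 0.10, adjusted p = 0.156) and 0.40 (SE 0.10, adjusted p = 0.168), each above all saline IPs, and Gpr37 by -0.45 (SE 0.22). Gpr25 gave 0.26, Gpr35, which answers to kynurenic acid, -0.26, and Gpr37 0.34 after LH for 1 h. In the Sertoli line Gpr137b differed by 0.62 (SE 0.18, adjusted p = 0.93) with testosterone, where 6.59 and 6.48 with cetrorelix stood against 7.09 and 7.23, called by the ordinary contrast. With cetrorelix against saline Gpr137b gave -0.39 and Gpr137b-ps 0.38, in opposite directions. Gpr137b-ps gave -0.46 and the pseudogene Adgrd2-ps 0.28 after FSH for 1 h, Gpr132 -0.42 and Gpr6 -0.40 after FSH for 4 h, and Adgrd1 0.37 with testosterone. The Gpr132 arrays after FSH for 4 h lay under the signal limit, and with such signals set to it the difference was -0.23. With acyline Gpr39 gave -0.25, Gpr132 0.22 and Gpr157 -0.21, all with overlapping arrays. No adjusted p in the Sertoli line was under 0.359.

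The acyline effect was compared between the cell types directly, Leydig minus Sertoli. None of 59 receptors was called by limma, 6 had an unadjusted p under 0.05, as had 8.62% of all tested genes, and the ordinary contrast called 0, where 0.0379% of all tested genes were called higher and 0.0569% lower by limma, and 0.809% and 0.714% by the ordinary contrast. Gpr137b gave 0.52 (SE 0.19, adjusted p = 0.453), Gpr37 -0.50 (SE 0.22, adjusted p = 0.563), Gpr182 -0.46 (SE 0.15, adjusted p = 0.349) and Adgrg7 0.45 (SE 0.24, adjusted p = 0.621). The days of acyline differed between the lines, as given above.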

How the data were processed

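Testis RNA from whole homogenate and from anti-HA immunoprecipitates was hybridized to Affymetrix Mouse Gene 1.0 ST arrays. The deposited values are log2 signals that the authors normalized by RMA, which places all arrays on 1 distribution, and raw intensities were not used here. The number of arrays limits the precision. The table held 35556 probe sets on 32 arrays. GEO's platform table gave 1 symbol for 21789 of them, several for 1621 and none for 12146, and 21766 of the 21789 matched RefSeq by gene ID or symbol. Each gene was read at its probe set with the highest mean over all arrays.

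Moderated contrasts were fitted with limma 3.58.1 in R 4.3.3, per line or over both lines for the comparisons between them, with Benjamini-Hochberg adjustment over all probe sets tested. The signal filter of 50 and the limits of 2-fold and 1.5-fold followed the study's methods. Those name ANOVA with contrast analysis at p under 0.05 and mention no adjustment. The ordinary contrast without adjustment was modelled on that rule, and its calls are not the study's own. The cetrorelix arrays are labelled input in 1 field and immunoprecipitate in the others, and were taken as IPs. Named receptors were Gpr37 and Adgrg7, those called in an enrichment, the 3 with the widest differences in each hormone comparison, and 10 known from certain cell types or roles, while Adgrf1 and Gpr179 were chosen after their values were seen. Alternatives were no filter, quantile normalization, the ordinary contrast, the replicate number as a block, only the groups compared, any probe set of the gene, leaving out each array and, added after seeing the data, signals under the limit set to it. The fits were tested on simulated data. The receptors, gene lists and alternatives were chosen with earlier results of these data known. Lhcgr and Prlr among the Leydig genes, Rhox5 among the Sertoli genes, and Gnas and Grk2 were not analysed here.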

Additional observations from a re-analysis of the deposited data

Results flagged for a closer look

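A single array stood apart from its group for 4 receptors, by Dixon's criterion, out of 64 receptors and groups examined, where chance would mark about 1 in 20. Gpr55 read 7.759 in Sertoli saline IP replicate 5, with the nearest of the other 4 at 8.103. Gpr35 read 5.509 in Sertoli input replicate 4, with the nearest at 5.908. Adgrl2 read 6.548 in Sertoli input replicate 1, with the nearest at 6.743. Adgrg2 read 4.163 in Sertoli saline IP replicate 2, with the nearest at 4.309, all under the signal limit.

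The enrichment of 9 receptors differed between the lines by the limma test of the difference itself, Leydig minus Sertoli on the log2 scale. It was higher in the Leydig line for Adgrg7 (4.651) and Gpr182 (1.22). It was lower there for Gpr37 (-2.625), Adgrg1 (-2.426), Gpr55 (-1.619), Adgra3 (-1.466), Gpr84 (-1.377), Adgre5 (-1.367) and Gpr157 (-1.012).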

How the results depend on the processing

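The counts of called receptors stayed at 15 in the Sertoli line and 9 in the Leydig line under each other setting that kept all arrays, and at 9 to 10 for the difference of enrichments. With signals under the limit set to it, an alternative chosen after seeing the data, they were 12, 7 and 9. Without 1 array they were 14 to 15, 8 to 9 and 8 to 10. The inputs, the hormone comparisons and the acyline comparison between cell types stayed at 0 without any 1 array. LH for 4 h gave 1 with any probe set of the gene and 1 by the ordinary contrast (Adgrl2 in each), and the ordinary contrast gave 1 with cetrorelix (Adgrl2) and 1 with testosterone (Gpr137b). The study set IPs against their respective inputs, but no source ties these by replicate number. Deviations of same-numbered arrays correlated at -0.03 to 0.16 in the Sertoli line and 0.02 to 0.15 in the Leydig line, and 2 of 5 and 2 of 3 IPs correlated best with the input of their own number, which does not settle the pairing. With the replicate block the counts were 15, 9, 9 and 0 for all other comparisons.

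Only differences that were not called turned sign, and the cause was not tested. With quantile normalization the differences of enrichment were -0.044 for Adgrl3 and 0.073 for Gpr160, and Gpr3 in the Leydig line gave -0.015. With signals under the limit set to it the difference of enrichment of Gpr65 was -0.0034. Without 1 array the difference of enrichment ranged from -0.019 to 0.069 for Adgrl3 and from -0.106 to 0.012 for Gpr160. The Leydig enrichment ranged from -0.068 to 0.071 for Gpr3 and from -0.141 to 0.198 for Gpr37, and the FSH difference of Adgrl2 at 4 h from -0.066 to 0.974. Groups of 2 arrays limit the hormone comparisons, and receptors under the signal limit have no test.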
